A study of Saccharomyces cerevisiae with 8 samples.

Results

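The proteasome is the protease that degrades proteins marked with ubiquitin. Its barrel-shaped core particle has outer rings of alpha subunits and inner rings of beta subunits, some of which cut peptide bonds inside the barrel. The regulatory particle on each end has a base, with a ring of ATPases that unfold substrates, and a lid that removes ubiquitin. In yeast the genes of these subunits are known to be activated together by the transcription factor Rpn4, which the proteasome itself degrades, so that its level can adjust to the demand for proteolysis.

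The genes described here are 33 genes of *Saccharomyces cerevisiae*, chosen by name: 14 of the core particle, 10 of the base, 8 of the lid and the regulator *RPN4*. They are 33 of the 5656 genes that have a probe set with 1 annotated gene on the Affymetrix yeast array, and the brightest probe set stood for each gene. RNA came from strain 4073, whose genotype is not given in the sources used here, grown to mid-log phase in the rich medium YPD. The 4 control samples (controls 1 to 4) received no drug. The 4 treated samples (gentamicin 5 to 8) had been acclimated to gentamicin, an aminoglycoside antibiotic that binds ribosomal RNA, and grew in it throughout, at 500 µg/ml per the sample labels (the design text gives the same number with mg/ml). The labels do not say whether the 4 samples of a group were separate cultures, so p-values measure the spread between these samples, which may be technical.

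Signals are the authors' intensities in arbitrary units, 1 per probe set and array. The median signal of all probe sets lay between 381 and 398 on the control arrays and between 321 and 338 on the gentamicin arrays, and the median log2 difference (gentamicin minus control) over the 4524 tested genes was -0.12. Values are therefore given as measured and, for groups of genes, also as distances from that median. Since the arrays were scaled to 1 mean, a change in total RNA per cell cannot be seen, and less RNA per cell and fewer cells with the RNA cannot be told apart. All 4 markers of alpha mating type cells passed the filter on dim genes, against 1 of 6 markers of a cells, *MFA1*, and these 5 genes were lower with gentamicin. The comparison asks how growth in gentamicin changes the levels of yeast transcripts.

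Transcripts of the proteasome differed little between the groups. All 33 genes passed the filter on dim genes. At an adjusted p under 0.05 (limma), 5 of the 33 were higher with gentamicin (*SCL1*, *PUP2*, *PRE3*, *RPN2* and *RPN4*), where 15.5% of all tested genes were higher. Only *RPN7* was lower, where 31.3% of all tested genes were lower. The share of members that were higher, 15.2%, was thus close to that of all tested genes, and the share that were lower was 3.03%. Among the 1848 tested genes at least as bright as the dimmest of the 33, more were higher (26.1%) and fewer were lower (21.3%) than among all tested genes. None of the 33 changed by 1.5-fold or more in the fit except *RPT4*, whose difference rests on 1 array. With aligned array medians *PRE3* passed 1.5-fold (log2 difference 0.59). With medians aligned over all probe sets *PRE3*, *RPN13* and *RPT1* did so (0.68, 0.63 and 0.59).

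The differences were also small in their intervals. For 27 of the 33 genes the 95% interval of the difference lay within 1.5-fold in both directions, compared with 57.1% of all tested genes. Among the 1848 tested genes at least as bright as the dimmest of the 33, that share was 66.8%. The SD of the log2 difference was 0.23 over the 33 genes, 0.42 over those 1848 genes and 0.47 over all tested genes. The interquartile ranges were 0.32, 0.46 and 0.49. Without *RPT4* and *RPN4* the SD was 0.19 over the remaining 31 subunits, whose differences ran from -0.22 to 0.45. No gene was left out of the other sets.

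**Figure D1:**
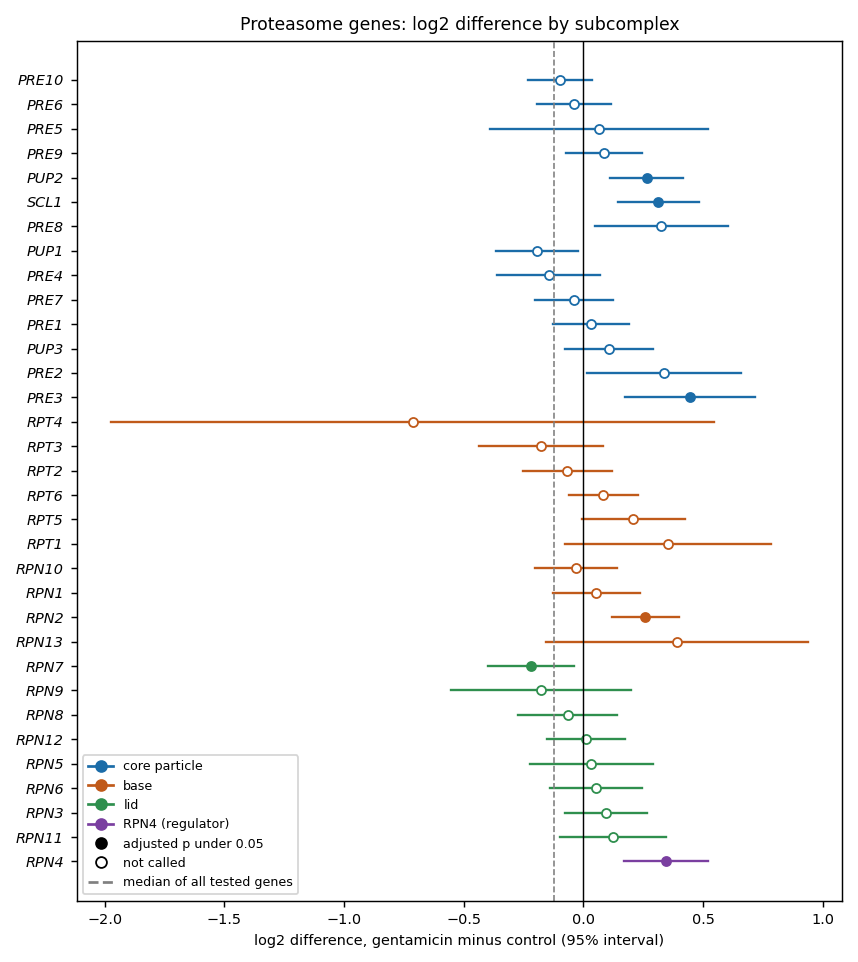
Log2 difference between gentamicin and control for each of the 33 genes, grouped by subcomplex, with the 95% interval from limma (n = 4 per group). Filled points are the 6 genes with an adjusted p under 0.05, the solid line marks no difference, and the dashed line marks the median of all tested genes at -0.12. Most intervals cross 0, and that of *RPT4* is the widest.

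*RPN4* was the clearest single change. Its signal was 1057, 1066, 1075 and 1000.2 on controls 1 to 4, and 1179, 1429, 1420 and 1320 on gentamicin arrays 5 to 8. Every gentamicin value lay above every control value, and gentamicin 5 was the closest to the controls. The group means were 1050 ± 33.8 (SD, n = 4) and 1337 ± 117, a 1.27-fold increase with a 95% interval of 1.13 to 1.44 (log2 difference 0.35 ± 0.08 SE, adjusted p = 0.0058). The increase was called after quantile normalization (log2 difference 0.43, adjusted p = 0.00186) and with aligned array medians (0.49, adjusted p = 0.000675). It was also called when any 1 array was left out, with log2 differences from 0.31 to 0.40.

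The subunits as a group lay below *RPN4*. Their median log2 difference was 0.05 over 32 genes, which is 0.29 below that of *RPN4* as a description, since no test was made between a gene and a group. After quantile normalization this distance was 0.41. As measured, *PRE3*, *RPN13* and *RPT1* had larger log2 differences than *RPN4* (0.4457, 0.3907 and 0.3528 against 0.3456). Of these subunits only *PRE3* was called. The subunit median itself was 0.0122 without gentamicin 8 and 0.0328 without gentamicin 6.

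Of the transcription factors known in yeast to act upstream of *RPN4*, 4 were tested. By limma 0 of them were higher, also at an unadjusted p under 0.05, although 1 was higher when gentamicin 6 was left out and 1 with medians aligned over all probe sets. *HSF1*, the heat shock factor, had signals of 1414 ± 35.0 and 1542 ± 231 (adjusted p = 0.422). *PDR1*, an activator of drug resistance genes, had 1397 ± 77.5 and 1373 ± 59.4 (adjusted p = 0.785), and its relative *PDR3* had 383 ± 53.0 and 349 ± 15.7 (adjusted p = 0.361). *YAP1*, the oxidative stress factor, fell 1.37-fold, from 479 ± 25.2 to 350 ± 27.6 (adjusted p = 0.00225), though its call was lost after quantile normalization (adjusted p = 0.0562). Of the genes that mark Rpn4 for degradation, *RAD6*, the ubiquitin-conjugating enzyme, fell 1.47-fold from 1060 ± 151 to 719 ± 77.4 (adjusted p = 0.00541). Its partner *MUB1* was not called (log2 difference 0.14, adjusted p = 0.378), and *UBR2*, the ligase, was below the filter.

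The core particle had 3 of its 14 genes higher (21.4%) and 0 lower by limma, where 15.5% of all tested genes were higher and 31.3% lower. Among the 1848 tested genes at least as bright as the dimmest gene described here, 26.1% were higher and 21.3% lower. At an unadjusted p under 0.05, 5 core genes were higher and 1 was lower. The share of all tested genes at that threshold is not given, so unadjusted counts of any gene set have no comparison. The median log2 difference of the core particle was 0.08, or 0.20 above the median of all tested genes. In the alpha ring, *SCL1*, which encodes subunit alpha 1, and *PUP2*, which encodes subunit alpha 5, were called. *SCL1* had signals of 3688, 3832, 4496 and 4298 in controls 1 to 4 and of 5272, 5123, 4874 and 4953 in gentamicin 5 to 8. The groups did not overlap, and the gentamicin arrays were closer together than the controls. The means were 4079 ± 381 and 5055 ± 178, a 1.24-fold increase with an interval of 1.11 to 1.40 (adjusted p = 0.00752).

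*PUP2* had signals of 1672, 1928, 1843 and 1841 in the controls and of 2134, 2063, 2284 and 2267 with gentamicin. All gentamicin values were again above all controls. The increase was 1.20-fold, with an interval of 1.08 to 1.34 (adjusted p = 0.0109). Among the other alpha subunits, *PRE8* (alpha 2) had signals of 3710, 5078, 5242 and 5666 in the controls and of 6175, 5592, 6506 and 6138 with gentamicin. Control 1 stood below the other controls, and gentamicin 6 lay under control 4, so the groups overlapped. Its log2 difference was 0.33 ± 0.12 (SE, adjusted p = 0.0552), and 0.20 without control 1 (adjusted p = 0.0505). *PRE8* was called higher without control 4 (adjusted p = 0.0327), with array weights (0.0257) and with aligned medians (0.0102).

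The remaining alpha subunits, *PRE9* (alpha 3, the one that yeast can do without), *PRE6* (alpha 4), *PRE5* (alpha 6) and *PRE10* (alpha 7), had log2 differences of 0.09, -0.04, 0.06 and -0.10, and none was called. *PRE5* had a wide interval. Its signals were 2996, 3853, 3982 and 4195 in the controls and 2494, 4274, 4868 and 4438 with gentamicin. The first array of each group was the lowest, and without gentamicin 5 the log2 difference was 0.28 (adjusted p = 0.0839).

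The beta subunits include those with the active sites. *PRE3* (beta 1, with caspase-like activity) had signals of 1678, 2247, 2287 and 2482 in the controls and of 2755, 2835, 3296 and 2859 with gentamicin. The groups did not overlap, and control 1 was the lowest of the controls. The means were 2173 ± 346 and 2936 ± 244, a 1.36-fold increase with an interval of 1.13 to 1.64 (adjusted p = 0.014), the largest increase among the 33 genes. The log2 difference of 0.45 became 0.33 without control 1 (adjusted p = 0.011).

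*PRE3* has 2 dimmer probe sets. One went from 493 ± 65.4 to 596 ± 67.4 (log2 difference 0.28, adjusted p = 0.0853 in a fit over 5203 probe sets). The other went from 960 ± 145 to 1046 ± 155 (0.12, adjusted p = 0.499). The call of *PRE3* thus rests on its brightest probe set, and with the median over its probe sets the adjusted p was 0.497.

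The other active subunits were not called. *PRE2* (beta 5, with chymotrypsin-like activity) had signals of 2716, 4314, 3807 and 4274 in the controls and of 4924, 4138, 4889 and 4875 with gentamicin. Control 1 was far below the others, gentamicin 6 lay within the range of controls 2 to 4, and the log2 difference of 0.34 (adjusted p = 0.0807) became 0.19 without control 1 (adjusted p = 0.0998). *PUP1* (beta 2, with trypsin-like activity) had signals of 3959, 3994, 4566 and 4313 in the controls and of 3356, 4031, 3592 and 3747 with gentamicin. Here 3 of 4 gentamicin values lay below all controls. The log2 difference was -0.19 (adjusted p = 0.0622), and it was called lower after quantile normalization (-0.25, adjusted p = 0.032) but not with aligned medians (-0.05, adjusted p = 0.629).

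The inactive beta subunits *PUP3* (beta 3), *PRE1* (beta 4), *PRE7* (beta 6) and *PRE4* (beta 7) had log2 differences of 0.11, 0.03, -0.04 and -0.15, with adjusted p from 0.238 to 0.746. Their groups all overlapped. The 3 subunits with active sites thus differed among themselves, at 0.45, 0.34 and -0.19, by more than the inactive ones did, although *PRE3* alone of them was called and the differences between subunits were not tested.

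**Figure D2:**
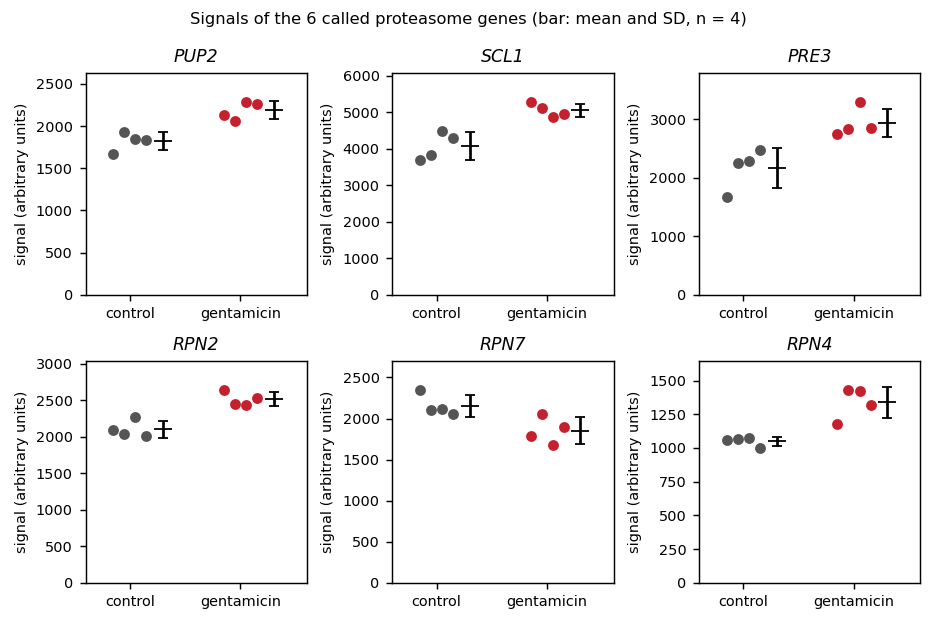
Signals (arbitrary units, axes from 0) of the 6 genes with an adjusted p under 0.05, with each of the 4 control and 4 gentamicin arrays as a point and the mean and SD beside them. The groups do not overlap for *PUP2*, *SCL1*, *PRE3*, *RPN2* and *RPN4*, while for *RPN7* gentamicin 6 at 2056 lies above control 4 at 2049.

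The base had 1 of 10 genes higher and 0 lower by limma, where 15.5% of all tested genes were higher and 31.3% lower. The counts for the base were the same at an unadjusted p under 0.05. The median log2 difference of the base was 0.07, or 0.19 above all tested genes. Without gentamicin 5 that median was 0.0194. The gene called was *RPN2*, a large scaffold subunit that holds the ubiquitin receptor Rpn13. Its signals were 2087, 2037, 2272 and 2017 in the controls and 2641, 2455, 2434 and 2535 with gentamicin. The groups were clearly apart. The means were 2103 ± 116 and 2516 ± 94.0, a 1.20-fold increase with an interval of 1.08 to 1.32 (adjusted p = 0.0084).

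*RPN13* itself had a larger log2 difference, 0.39, but was not called (adjusted p = 0.215). Its signals were 3115, 5354, 6293 and 6401 in the controls and 4734, 7275, 7755 and 7433 with gentamicin. The first array of each group was far below the other 3, while gentamicin 6 to 8 all lay above controls 2 to 4. With control 1 and gentamicin 5 both left out, an alternative chosen after the data were seen, the log2 difference was 0.32 and was called (adjusted p = 0.0129). *RPN10*, which also encodes a ubiquitin receptor, and *RPN1* had log2 differences of -0.03 and 0.05, and neither was called (adjusted p = 0.756 and 0.604).

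Of the 6 ATPase genes, *RPT1* to *RPT6*, 0 were called by limma, also at an unadjusted p under 0.05. With aligned array medians *RPT5* and *RPT6* were higher (adjusted p = 0.0121 and 0.0188). *RPT5* was also called higher without control 4 (adjusted p = 0.0396) and with array weights (0.0475). Without gentamicin 7, *RPT3* was lower (log2 difference -0.28, adjusted p = 0.0322). *RPT1* had signals of 2095, 3810, 4029 and 3883 in the controls and of 3980, 4267, 4612 and 4240 with gentamicin. Control 1 alone set the wide spread of the controls: the log2 difference was 0.35 (adjusted p = 0.16) with it and 0.13 (adjusted p = 0.139) without it. *RPT4* showed the opposite case. Its signals were 1136, 1726, 1700 and 1607 in the controls and 233, 1744, 1208 and 1505 with gentamicin. The value of gentamicin 5 decided the log2 difference of -0.71 ± 0.56 (SE, adjusted p = 0.323), which became -0.05 without that array (adjusted p = 0.834).

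*RPT2*, *RPT3* and *RPT6* had log2 differences of -0.07, -0.18 and 0.08. *RPT5* had 0.21 with its brightest probe set (adjusted p = 0.101), from 2003 ± 260 to 2301 ± 86.9. Its 3 further probe sets all had higher means with gentamicin. They went from 1713 ± 121 to 1913 ± 361, from 1066 ± 47.6 to 1374 ± 300, and from 79.4 ± 21.7 to 156 ± 26.0. The last was below the filter, and neither of the other dimmer ones was called (adjusted p = 0.41 and 0.0957).

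The lid showed the narrowest range of the 3 subcomplexes. By limma 0 of its 8 genes were higher and 1 was lower (the same at an unadjusted p under 0.05). Of all tested genes 15.5% were higher and 31.3% lower. The median log2 difference of the lid was 0.02 (0.15 above all tested genes), and all 8 intervals lay within 1.5-fold. The sign of the lid median was not stable: with 1 array left out it ran from -0.0161 (without gentamicin 6) to 0.0571 (without gentamicin 7), and it was -0.0033 without gentamicin 8 and 0.0013 without control 4. *RPN7* had signals of 2346, 2099, 2112 and 2049 in the controls and of 1785, 2056, 1677 and 1895 with gentamicin. The groups overlapped by 1 array. The means were 2152 ± 133 and 1854 ± 162, and the log2 difference was -0.22 ± 0.08 (SE, adjusted p = 0.0495). The call was lost when any 1 array was left out except gentamicin 6, and after quantile normalization (adjusted p = 0.0663), with aligned medians (log2 difference -0.07, adjusted p = 0.535) and without the filter (adjusted p = 0.0543).

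*RPN11*, the deubiquitinase of the lid, and its partner *RPN8* had log2 differences of 0.12 and -0.07. Signals of *RPN11* were 3344, 3320, 3376 and 3442 in the controls and 3930, 2959, 3865 and 4047 with gentamicin. Here gentamicin 6 stood below all controls and the other 3 above them. Of the fits that left out 1 array, only the one without gentamicin 6 called it (0.23, adjusted p = 0.01). The other lid subunits, *RPN3*, *RPN5*, *RPN6*, *RPN9* and *RPN12*, are scaffold proteins of the lid, and they had log2 differences of 0.10, 0.03, 0.05, -0.18 and 0.01, none of them called (adjusted p from 0.33 to 0.905).

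**Figure D3:**
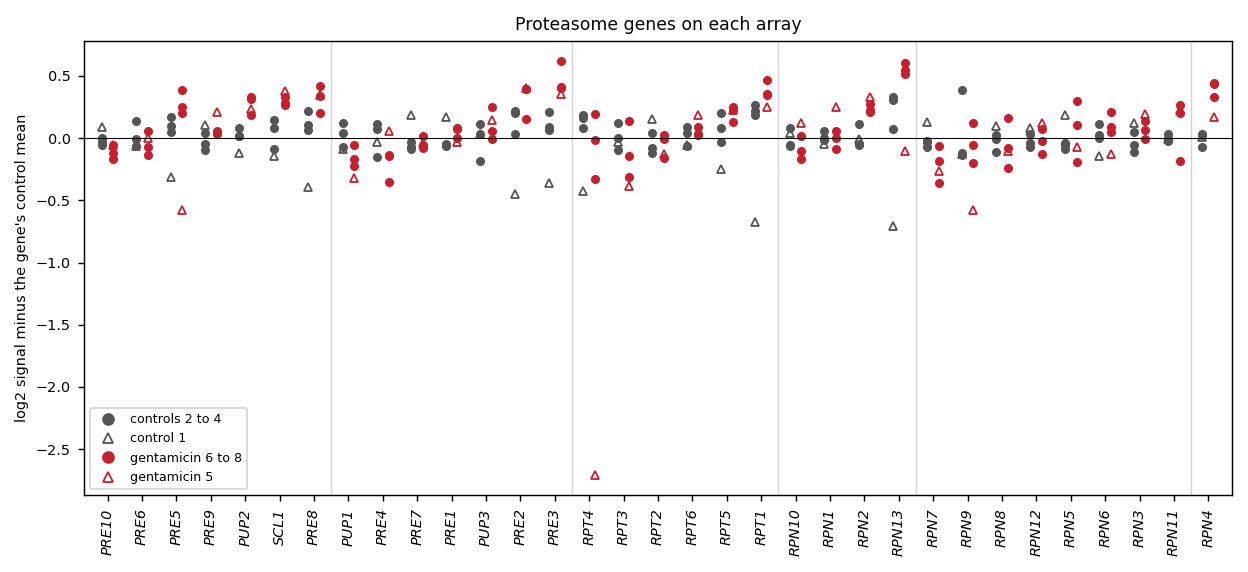
Log2 signal of each gene on each array, relative to that gene's mean over the 4 controls, with control 1 and gentamicin 5 drawn as open triangles. Control 1 lies far below the other controls for *RPN13*, *RPT1*, *PRE2*, *RPT4* and *PRE8*. Gentamicin 5 lies far below the other gentamicin arrays for *RPT4*, *PRE5*, *RPN13* and *RPN9*.

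Both of these arrays stood apart for part of the genes. Control 1 was more than 0.5 log2 units below the mean of the other controls for 5 of the 33 genes, namely *PRE2*, *PRE8*, *RPT1*, *RPT4* and *RPN13*, compared with 8.51% of all tested genes. Gentamicin 5 was that far below its group for 4, *PRE5*, *RPT4*, *RPN9* and *RPN13*, compared with 6.94% of all tested genes. None of the other 6 arrays was that low for any member. Of all tested genes, from 0.332% to 2.65% were that low on those arrays. Their part in the result was not tested beyond leaving them out: with both left out, *RPN13* was called in addition to the same 5 genes, and *RPN7* was not.

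By subcomplex, the values moved together only slightly. Relative to each gene's control mean, the median of the core particle was 0.10, 0.07, 0.15 and 0.07 on gentamicin 5 to 8, while controls 1 to 4 had -0.07, -0.04, 0.06 and 0.06. All 4 gentamicin medians were above all 4 control medians, the closest being gentamicin 6 and control 4. The base had 0.15, 0.08, 0.11 and 0.03 with gentamicin and -0.05, -0.01, 0.08 and 0.06 in controls, and the lid had -0.09, 0.10, -0.16 and 0.07 with gentamicin and 0.09, -0.03, 0.00 and -0.08 in controls. As measured, the 2 sets of arrays overlapped for both the base and the lid. The median of all tested genes, on the same scale, was -0.13, -0.10, -0.09 and -0.12 on gentamicin 5 to 8. On controls 1 to 4 it was 0.02, -0.01, 0.04 and 0.01. Set against that median array by array, the gentamicin values of the core particle and the base were all above the control values. Those of the lid still overlapped. No p is given for these medians, since the genes were chosen with results of these data known.

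**Figure D4:**
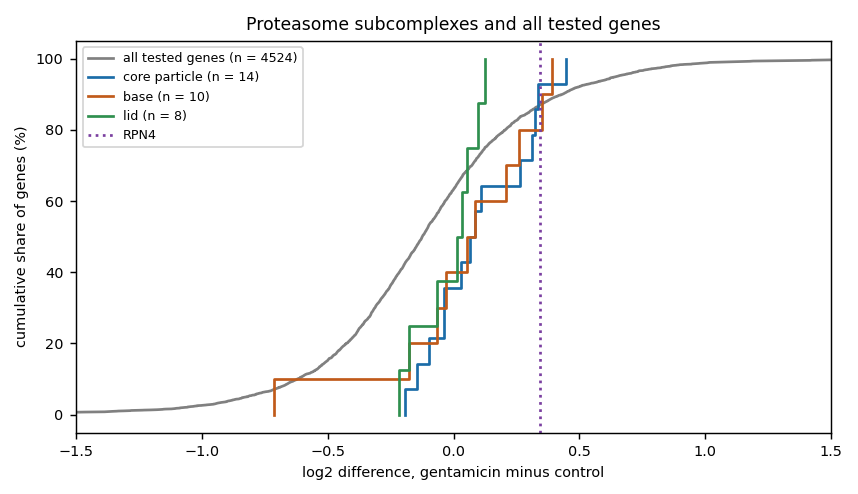
Cumulative share of genes (%) by log2 difference for all tested genes (n = 4524), the core particle (n = 14), the base (n = 10) and the lid (n = 8), with *RPN4* as a dotted line at 0.35. The subcomplex curves are steeper than that of all genes, and most of each lies to its right.

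The distance of the subunits from all tested genes depended on what they were set against. Of the 33 genes, 27 lay above the median of all tested genes. The gentamicin values were all above the control values for 5 of the 33 and all below them for none, compared with 15.2% and 29.6% of all tested genes. Among the 1848 tested genes with a mean log2 signal at least that of the dimmest of the 33, 26.1% were higher and 21.3% lower, and their median log2 difference was 0.02. The median of the 33, 0.05, was close to that value. After quantile normalization, 5 of the 33 were higher and 1 was lower, where 18.8% of all tested genes were higher and 19.8% lower, and the subunit median lay 0.04 above that of all tested genes. With array medians aligned over the tested genes, 12 were higher and 0 lower, where 23.9% of all tested genes were higher and 17.7% lower. *SCL1*, *PUP2*, *PRE3*, *RPN2* and *RPN4* were called higher under both.

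Genes of proteins that assemble or accompany the proteasome went both ways. Of 15 tested assembly and associated factors, 1 was higher and 3 were lower, against 15.5% and 31.3% of all tested genes. Their median log2 difference was -0.02. The count higher was 2 after quantile normalization, 4 with aligned medians and 7 with medians aligned over all probe sets. The share of all tested genes that were higher was then 18.8%, 23.9% and 30.3%, in that order. *UBP6*, the deubiquitinase bound to the base, rose 1.13-fold from 2863 ± 110 to 3249 ± 165 (adjusted p = 0.0357), a call lost after quantile normalization (adjusted p = 0.125) and in 6 of the 8 fits that left out 1 array (all but those without gentamicin 5 or 6). *SEM1*, a small lid subunit that is not among the 33, fell 1.24-fold from 1868 ± 106 to 1515 ± 200 (adjusted p = 0.0323), also lost after quantile normalization (adjusted p = 0.0525), with aligned medians (0.214) and without control 2, control 4 or gentamicin 7. *POC4*, a chaperone of alpha-ring assembly, fell 1.32-fold from 1454 ± 103 to 1100.4 ± 94.0 (adjusted p = 0.0038). *CIC1*, a protein bound to the core particle that is also known to act in ribosome assembly, fell 1.96-fold from 607 ± 33.3 to 311 ± 25.6 (adjusted p = 4.15e-05). *UMP1*, the maturation factor of the core particle, had a log2 difference of -0.02 (adjusted p = 0.828).

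The polyubiquitin gene and part of the genes around Cdc48 were higher. Cdc48 is the ATPase that extracts ubiquitin-marked proteins from complexes and membranes. *UBI4*, the polyubiquitin gene, had signals of 5007, 6330, 6266 and 5889 in the controls and 9260, 7860, 8673 and 8366 with gentamicin. The groups were far apart, and the increase was 1.46-fold (adjusted p = 0.000943). Of 12 tested genes of Cdc48 and its cofactors, 6 were higher and 1 was lower, against 15.5% and 31.3% of all tested genes. The median log2 difference of the 12 was 0.13. After quantile normalization *CDC48* and another of the 6 lost their calls (adjusted p = 0.105 and 0.318). A gene not among the 6 was then called higher (adjusted p = 0.0456), as it was with aligned medians (0.039). *UBX6* rose 1.65-fold from 801 ± 26.7 to 1322 ± 117 (adjusted p = 0.000115), *OTU1*, a deubiquitinase, rose 1.36-fold (adjusted p = 0.00251), and *DOA1*, a ubiquitin-binding cofactor, rose 1.41-fold (adjusted p = 0.0118). *VMS1*, a cofactor that acts on stalled translation products and at mitochondria, fell 1.58-fold from 273 ± 29.3 to 173 ± 6.13 (adjusted p = 0.000713). It lay below the filter without control 1 or control 2.

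The enzymes that attach and remove ubiquitin went both ways. Of 11 tested activating and conjugating enzymes, 3 were higher (*UBC1*, *UBC8* and *UBC4*, by 1.25-fold, 1.24-fold and 1.41-fold) and 3 were lower (*UBC7*, *RAD6* and *PEX4*, by 1.21-fold, 1.47-fold and 1.28-fold). The increase of *UBC4* and the decrease of *PEX4* were not called after quantile normalization (adjusted p = 0.101 and 0.298). Each was also lost in 4 of the 8 fits without 1 array: without gentamicin 6, 7 or 8 for both, without control 2 for *UBC4* and without control 3 for *PEX4*. With aligned medians the decreases of *UBC7* and *PEX4* were not called (adjusted p = 0.106 and 0.165). By limma 0 of 10 tested ligases were called, with a median log2 difference of 0.13. At an unadjusted p under 0.05, 2 were higher, 3 were called higher after quantile normalization and 5 with aligned medians. Of all tested genes 18.8% and 23.9% were higher under those scalings. The list of deubiquitinases leaves out *UBP6*, *OTU1* and *RPN11*, which are counted in other groups above, where *UBP6* and *OTU1* were called higher. Of the 13 tested genes on the list, 1 was higher, *UBP5* (1.53-fold, adjusted p = 0.000187). On the same list 4 were lower, among them *OTU2* (1.38-fold), *UBP10* (1.28-fold) and *UBP1* (1.43-fold). The 4 became 2 after quantile normalization and 2 with aligned medians. Under both, *UBP1* (adjusted p = 0.0649 and 0.0627) and the gene not named above lost their calls, *OTU2* and *UBP10* being kept.

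Of the 3 shuttle factors, which carry ubiquitin-marked proteins to the proteasome, *RAD23* fell 1.18-fold (adjusted p = 0.0328), and that call was lost with aligned medians (adjusted p = 0.354) and in 5 of the 8 fits without 1 array (without control 2, 3 or 4 or gentamicin 6 or 8). Of 5 mitochondrial genes of ATP-dependent proteases and a related unfoldase, *PIM1* fell 1.18-fold (adjusted p = 0.0239, lost with aligned medians at 0.312 and without control 3, control 4 or gentamicin 8) and the other 4 were not called, although 4 of the 5 were lower at an unadjusted p under 0.05. The counts of called genes in these lists, but not the unadjusted counts, can be read against all tested genes. Of those, 15.5% were higher and 31.3% lower. After quantile normalization those shares were 18.8% and 19.8%, and with aligned medians 23.9% and 17.7%.

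**Figure D5:**
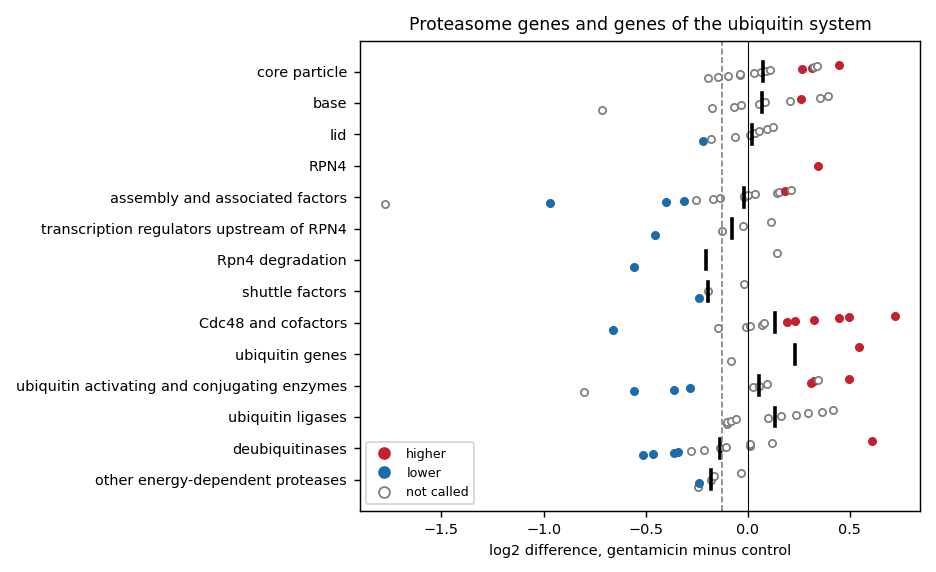
Log2 difference of each tested gene of the proteasome subcomplexes, *RPN4* and 10 lists of the ubiquitin system and other proteases, with called genes filled and the median of each list as a black bar. The lid is the narrowest of the subcomplexes, and the genes of Cdc48 and cofactors hold 6 increases.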

How the data were processed

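The authors' deposited values are 1 intensity per probe set and array, from MAS5 according to the processing notes of the submitters; its version and settings are not given in the sources used here. All 9335 intensities per array were above 0, and the mean without the lowest and highest 2% lay between 1000.6 and 1000.7 on all arrays, so arrays had been scaled to 1 mean. Precision is limited by 4 arrays per group. Gene names came from the platform annotation through gene identifiers matched to the R64 gene table (6504 of 6504 probe sets with 1 gene). No coordinates or sequences are given.

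Intensities were converted to log2 with no offset, the brightest probe set was kept per gene, the dimmest 20% of genes were left out, and gentamicin minus control was fitted with limma 3.58.1 in R 4.3.3 (variance trend, Benjamini-Hochberg over 4524 genes, call at 0.05). The fit was tested on simulated data. Folds are ratios of geometric means. The genes named are all 33, the regulators of *RPN4*, and per list up to 3 called genes in each direction. *MUB1*, *UBR2* and *UMP1* are named outside this rule, after their values were seen. *MFA1* is named as a marker. The 33 genes and the lists were chosen with earlier results of these data known. A planned count of promoter motifs was not run. Alternatives were other scalings, offset, filters, models, probe set rule, threshold and arrays left out.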

Additional observations from a re-analysis of the deposited data

Results flagged for a closer look

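Several values stood apart within their group of 4 arrays by Dixon's test on log2 signals (gap to the nearest array over the group's range, against the 95% critical value, which chance passes in about 1 of 20 groups). This held for 9 of 66 groups of the 33 genes (13.6%) and for 8.78% of the groups of all tested genes. Control 1 was low for *RPT1* (0.9144) and *RPT4* (0.8291) and high for *PRE1* (0.9432) and *RPN5* (0.8294). *RPT4* and *RPN5* were thus only just past the critical value. The low signal of *RPT4* on gentamicin 5 (233) did not pass it. Gentamicin 5 was low for *RPN13* (0.8706) and high for *PRE9* (0.841). Gentamicin 6 was low for *PRE2* (0.9425) and *RPN11* (0.8532), and control 3 was high for *RPN9* (0.9561). Outside the 33 genes, only other genes named in the text, mating type markers left out, were looked at. Among them control 1 was low for *UBP6* (0.8857), *UBC4* (0.8315), *MUB1* (0.8374) and *UBR2* (0.837), gentamicin 8 was low for *IRC25* (0.9723), gentamicin 5 was low for *UBC4* (0.8405), and control 3 was low for *UBC1* (0.8375).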

How the results depend on the processing

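No paired analysis was possible because the replicate numbers of the 2 groups, 1 to 4 and 5 to 8, are not shared. Scaling moved the results most. Of all tested genes, 702 were higher and 1414 lower. With array medians aligned over the tested genes these were 1079 and 799, and over all probe sets 1369 and 546. The plan named no gene set for this alignment: it was first run over all probe sets, and the version over tested genes was set as the planned one after that output was seen. Quantile normalization gave 894 lower, and an adjusted p under 0.01 gave 915 lower. The 5 members called higher became 12 and 19 with the 2 alignments and 3 at an adjusted p under 0.01. Those 5 genes were among the calls under every alternative except the median over probe sets, which lost *PRE3*, and the stricter threshold, which lost *PRE3* and *PUP2*. The 1 member called lower became 0 with either alignment, without the filter, without the variance trend, at the stricter threshold and with control 1 and gentamicin 5 left out together, and 2 with array weights. Leaving out 1 array gave 0 to 2 lower. The log2 difference of *RPN7* turned to 0.020 with medians aligned over all probe sets (adjusted p = 0.866). Median log2 differences became 0.22 and 0.31 for the core particle with the 2 alignments and 0.016 after quantile normalization, 0.22 and 0.31 for the base, and 0.17 and 0.26 for the lid. With 1 array left out they ran from 0.0517 to 0.1027, from 0.0194 to 0.1009 and from -0.0161 to 0.0571, in that order. That of all tested genes became 0.022 and 0.11 with the alignments, -0.016 after quantile normalization and -0.078 with the dimmest 40% left out. The cause of these shifts was not tested, other than that fewer genes were tested in the last. The increase of *RPN4* was called under all alternatives run. Counts of the other lists moved by over 1.5 times in 57 of 380 repeats.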

Other observations

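*IRC25*, a chaperone of alpha-ring assembly named here after its values were seen, had signals of 866, 927, 1030 and 977 in the controls and of 959, 848, 970 and 7.46 with gentamicin. Gentamicin 8 alone gave its log2 difference of -1.78 (adjusted p = 0.329). *CDC48* itself, also named after its values were seen, rose 1.25-fold from 5362 ± 533 to 6696 ± 565 (adjusted p = 0.0167), a call that was lost after quantile normalization (adjusted p = 0.105).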
